A study of Mus musculus with 2 samples.

Results

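Unlabelled cells of the coronal suture that carried Prg4 numbered 58 in the E15.5 library and 30 in the E17.5 library, 88 of the 16977 cells kept in all. A cell was counted when its barcode was absent from the authors' table of osteogenic and mesenchymal cells and it held at least 2 UMIs (unique molecules counted) of Prg4 and fewer than 10 of Matn1. It also had to hold at least 1000 UMIs and 1000 genes, with at most 7.5% mitochondrial UMIs and at most 3% each of Hbb and Hba UMIs. These cells made up 2.02% of the 2875 unlabelled kept cells at E15.5 (exact binomial 95% interval 1.54 to 2.6%). The E17.5 share was 1.55% of 1937 (1.05 to 2.2%). Prg4 and Matn1 chose the cells, so their levels are a description and neither gene enters a comparison.

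The coronal suture is the fibrous joint between the frontal and parietal bones, here taken from wildtype C57/BL6 mouse embryos and profiled with 10x Chromium 3′ v2 chemistry. For E15.5, 10 sutures were pooled and digested in dispase plus collagenase II, and dead cells were then depleted with a kit. The E17.5 sample joined 3 batches of 10, 3 and 3 sutures from 2 litters, digested with Collagenase IV and sorted to remove debris, doublets and likely dead cells. Each stage was thus 1 sample of pooled embryos, so no test between conditions was possible, and stage, enzyme, sorting and embryos cannot be told apart. In the E17.5 library, barcodes with suffix 1, 2 and 3 gave 10, 13 and 7 of the Prg4-positive cells, and which suffix was which batch was not given.

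The kept cells held a median of 8777.5 UMIs at E15.5 and 11996 at E17.5. The Prg4-positive cells were shallower, with medians of 6228 (2402 to 19374) and 8398.5 (4454 to 19964), and held 414955 and 270913 UMIs together. The median share of mitochondrial UMIs was 1.87% and 1.91% in them. Between the libraries 94 barcode sequences of kept cells were shared, and 0 of these belonged to Prg4-positive cells. Levels are given as CPM, a gene's UMIs scaled by the total UMIs, both summed over the cells of a group, and their 95% intervals cover counting error only.

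Prg4 encodes lubricin, a mucin-like glycoprotein that lubricates the surfaces of joints and tendons and is made by superficial chondrocytes and by lining cells of the synovium. Matn1 encodes matrilin 1, a filament-forming protein of hyaline cartilage that the articular surface of a developing joint does not make. Chondrocytes deposit type II, IX and XI collagen and the proteoglycan aggrecan, whereas ligament cells make mostly type I collagen and tenomodulin.

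Prg4 (chr1:150449412-150466165, minus strand, GRCm38) had 294 UMIs in the E15.5 cells, at 709 CPM, and 98 in the E17.5 cells, at 362 CPM. Its count per cell ran from 2 to 21 with a median of 3 at E15.5, and from 2 to 12 with a median of 2 at E17.5. Many cells sat at the limit, since 18 of 58 and 21 of 30 held exactly 2 UMIs, and 20 and 6 cells held 5 or more. Just outside the rule were 49 and 13 unlabelled cells with 1 Prg4 UMI, and 17 and 5 cells with enough Prg4 but 10 or more Matn1 UMIs (10 to 56 and 10 to 39). Matn1 was at 0 in 13 and 9 of the Prg4-positive cells and at 5 to 9 UMIs in 16 and 3 of them, with medians of 3 and 2.

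Prg4 was found at a low level in the other cells. Matn1-high cells, the unlabelled cells with at least 10 Matn1 UMIs (1195 and 181), had Prg4 at 7.35 and 10.0 CPM. It was at 1.0 and 0.217 CPM in LIG, the labelled cluster with ligament genes (497 and 675 cells), and at 1.5 and 0.527 CPM in MG4, a labelled meningeal cluster with arachnoid genes (64 and 202 cells). Among unlabelled cells with at least 10 UMIs of 6 myeloid markers, which should lack Prg4, 4 of 598 held a Prg4 UMI at E15.5 (0.669%). None of 747 did so at E17.5 (0 cells), where a count of 0 leaves room for at most 0.402%. The rule had already taken cells with at least 2 Prg4 UMIs and fewer than 10 of Matn1 out of this group. Its Prg4 shares could thus be set too low by the rule. The median depths of these myeloid-marked cells were 10499 and 10257 UMIs.

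Of the 2 other markers proposed for the cells, Tac1 was found in few of them and was not above LIG cells by more than the counting error in either library. Tac1 (chr6:7554879-7565834, plus strand), the precursor gene of substance P and neurokinin A, was seen in 8 of 58 cells at E15.5 and in 3 of 30 at E17.5. Its count per cell ran from 0 to 10 and from 0 to 9 UMIs with a median of 0 in both libraries, and 1 cell held 40% and 64.3% of all its UMIs. Tac1 stood at 60.2 CPM (39 to 88.9) at E15.5, next to 49.7 in Matn1-high and 55.4 in LIG cells. At E17.5 Tac1 was at 51.7 CPM (28.3 to 86.7), next to 15.9 and 340, and suffix 1 held no Tac1 UMI in its 10 cells. After each cell was thinned to 3000 UMIs, 11.3% and 10.0% of the Prg4-positive cells and 10.2% and 46.8% of LIG cells held Tac1, against 0.859% and 1.47% of myeloid-marked cells.

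Of the 7 tachykinin genes listed, Tac2 and the 3 receptor genes Tacr1, Tacr2 and Tacr3 were at 0 UMIs in the Prg4-positive cells of both libraries. No gene of the list had enough UMIs for a ratio to Matn1-high or MG4 cells, and 0 of the 3 with enough against LIG cells passed 2-fold.

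Cldn11 was more widely found, in 36 of 58 and 7 of 30 cells. Cldn11 (chr3:31149920-31164324, plus strand) encodes claudin 11, a tight junction protein known from the arachnoid barrier, myelin and the testis. Counts per cell ran from 0 to 10 UMIs with a median of 1 at E15.5, and from 0 to 15 with a median of 0 at E17.5, where 1 cell held 41.7% of its UMIs. Its level was 236 CPM (192 to 288) and 133 CPM (93.1 to 184). This was 44.9 and 22.2 times that of LIG cells and 8.86 and 4.26 times that of all other kept cells. Against Matn1-high cells the ratio was 4.62 in the E15.5 library and 1.63 in the E17.5 library, and against MG4 cells it was 0.494 and 0.119, so Cldn11 was lower than in MG4. Of the 20 tight junction genes listed, Cldn11 alone passed 2-fold in any of the 4 comparisons. No UMI was found in the Prg4-positive cells for 10 others, among them Cldn5, Cldn3 and Cldn4. Only 12 of the 20 had enough UMIs for a ratio to all other kept cells, and none of the 10 was called lower there. Their counts of 0 thus do not set the Prg4-positive cells apart. Tac1 and Cldn11 were seen together in 3 cells at E15.5 and in 2 at E17.5.

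**Figure D1:**
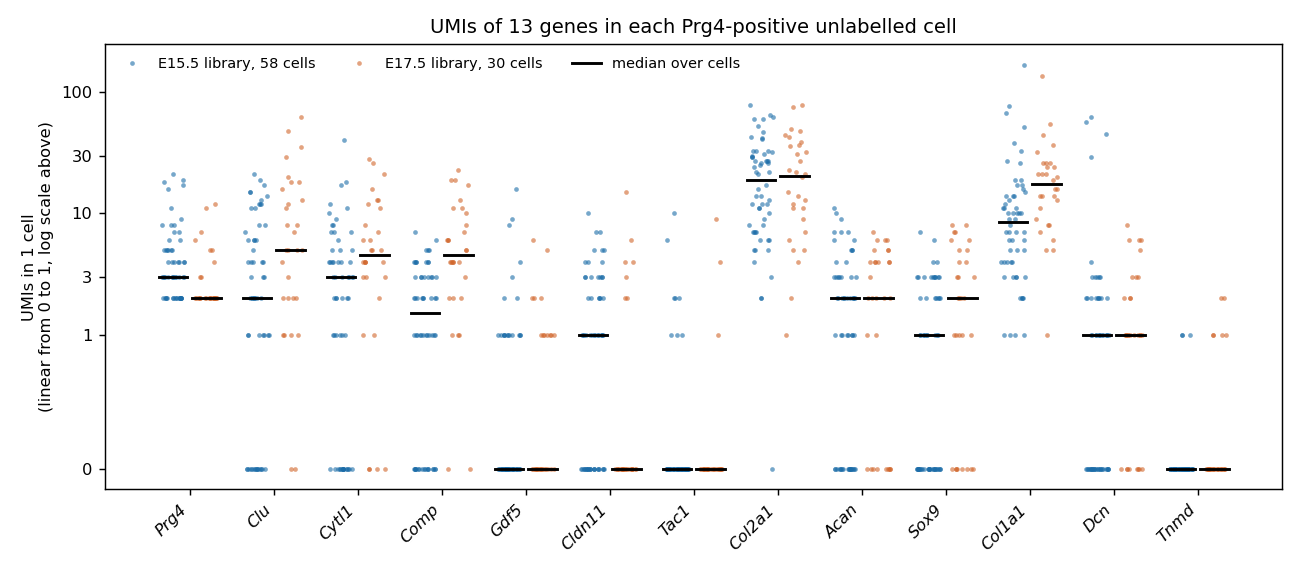
UMIs of 13 genes in each Prg4-positive unlabelled cell (vertical axis, linear from 0 to 1 and logarithmic above), with 58 cells of the E15.5 library in blue, 30 of the E17.5 library in orange and bars at the median. Col2a1 and Col1a1 were present in nearly every cell, Tac1, Gdf5 and Tnmd had a median of 0, and 4 cells at E15.5 stood apart with 29 to 62 Dcn UMIs.

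The levels of all genes were compared with those of Matn1-high, LIG and MG4 cells and of all other kept cells. A gene was counted when its CPM ratio was at least 2, or at most 0.5, in the same direction in both libraries, among genes with at least 50 UMIs in each library over the groups compared. With 1 sample per stage this is a description of these libraries. Since Matn1 separated the Prg4-positive from the Matn1-high cells by rule, genes whose level goes with that of Matn1 enter that comparison through the rule.

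Against Matn1-high cells, the Prg4-positive cells had more Clu and Gdf5 and less of the cartilage matrix genes and of the cell cycle genes. Of 4967 genes, 124 were higher in both libraries (2.5%) and 183 were lower (3.68%). The median ratio of all these genes was 0.976 at E15.5 and 1.01 at E17.5.

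Clu led the genes that were higher. Clu (chr14:65968483-65981547, plus strand) encodes clusterin, a secreted chaperone that is abundant at the surface of articular cartilage. Its UMIs per cell ran from 0 to 21 with a median of 2 at E15.5 and from 0 to 62 with a median of 5 at E17.5, and 43 of 58 and 28 of 30 cells held it. Clu stood at 665 CPM (589 to 748) and 1270 CPM (1140 to 1410), against 28.5 and 112 CPM in Matn1-high cells, so that the ratios were 23.3 (20 to 27.2) and 11.3 (9.59 to 13.4). Clu in the E17.5 suffixes was at 1090, 1370 and 1370 CPM in the Prg4-positive cells and at 102, 59 and 170 CPM in Matn1-high cells, so the groups stood apart within each suffix. In cells thinned to 3000 UMIs, 62.3% and 70.0% of Prg4-positive, 7.22% and 16.6% of Matn1-high and 2.75% and 0.669% of myeloid-marked cells held Clu.

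Myeloid markers were low in the Prg4-positive cells, with the 6 markers together at 50.6 CPM at E15.5 and 144 at E17.5, against 646 and 1200 in all other kept cells, and each of the 6 was lower than there.

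Gdf5 (chr2:155941023-155945367, minus strand) encodes a BMP family ligand that marks the interzone of forming joints. Gdf5 was seen in a minority of the cells, 19 of 58 and 12 of 30, and 4 cells held 66.1% and 62.5% of its UMIs. Gdf5 stood at 135 CPM (102 to 175) and 88.6 CPM (56.8 to 132), 7.57 and 2.29 times its level in Matn1-high cells and 24 and 39.5 times that in all other kept cells. Gdf5 was at 154, 58.4 and 37.1 CPM in suffixes 1 to 3, against 57.2, 36 and 36.8 CPM in Matn1-high cells, so in suffix 3 the ratio was close to 1.

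Of the 20 genes listed for the articular surface and synovium, 9 had enough UMIs against Matn1-high cells, 4 were higher (Clu, Dkk3, Gdf5 and Erg), 0 were lower, and the median ratio was 3.93 and 2.03. Dkk3, a secreted Dickkopf family protein, stood at 104 and 210 CPM, 6.14 and 5.08 times the Matn1-high level. Erg, an ETS factor of articular chondrocytes, rested on 9 and 11 UMIs, with ratios of 3.93 (1.74 to 7.84) and 2.03 (0.944 to 3.99). Cytl1, a secreted protein of cartilage, was at 583 and 794 CPM, but its ratio to Matn1-high cells was 2.04 and 0.919. Other genes of the list were nearly absent. Cilp had no UMI, Has1, a hyaluronan synthase, had 2 UMIs, both in 1 cell of the E15.5 library, and Wnt9a had 2 and 1 UMIs. Against all other kept cells, 5 of 19 genes of the list were higher (Gdf5, Cytl1, Clu, Foxo3 and Htra1) and 4 lower (Creb5, Vcam1, Wnt9a and Cd55). Of the lower ones, the synovial fibroblast genes Cd55 and Vcam1 stood at 7.23 and 14.8 CPM and at 48.2 and 22.1 CPM. Against LIG cells 3 of 12 genes of this list were higher (Cytl1, Clu and Foxo3) and 3 lower (Wnt9a, Abi3bp and Vcam1). The median ratio was 1.05 and 1.02, while the summed level of the list was 2210 and 3340 CPM against 995 and 979.

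Among signalling genes, 4 of 10 TGF-beta and BMP genes were higher than in Matn1-high cells, namely Gdf5 and the ligands Tgfb1, Tgfb2 and Tgfb3, and 1, Gdf10, was lower. Tgfb2 stood at 231 and 155 CPM (ratios 4.79 and 3.04) and Tgfb3 at 116 and 122 CPM (4.91 and 2.39). Bmp3, a BMP family member known to limit bone mass that was outside the list, stood at 169 and 70.1 CPM, with ratios of 13.3 and 4.16. Of 5 Wnt genes, Dkk3 and Wif1, both secreted proteins, were higher and the ligand Rspo3 was lower. Wif1 had ratios of 3.79 and 2.38, and Rspo3 was at 16.9 CPM against 55.1 at E15.5 and at 0 of 270913 UMIs against 49.7 CPM at E17.5. Of the 3 hedgehog and PTHrP genes with enough UMIs 0 passed, and Ihh and Shh had no UMI. Mmp14, a membrane-bound collagenase, was higher (3.36 and 3.23) and the inhibitor Timp1 lower (0.408 and 0.457), the 2 called of 8 matrix protease genes.

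The other genes that ranked highest against Matn1-high cells had varied roles. Nrp1, a semaphorin and VEGF co-receptor, had ratios of 6.75 and 7.24. Gadd45a, a stress-response gene, had ratios of 5.77 and 6.53, and Tfrc, the transferrin receptor, 9.39 and 4.68. Scara3, a scavenger receptor family gene, was seen in 52 of 58 and 28 of 30 cells at 523 and 535 CPM, with ratios of 9.17 and 5.32. Nbl1, a secreted BMP antagonist, had ratios of 9.22 and 5.23. Igfbp7 (6.05 and 4.62), Ly6e (8.28 and 4.04), Cadm1 (4.3 and 4.79), and the Clu, Dkk3 and Bmp3 given above were also among the highest ranks. Tspan13, a tetraspanin, was also higher, at 422 and 568 CPM with ratios of 10.2 and 2.29. The 16 immediate early and heat shock genes listed as a dissociation response had 0 of 14 called against Matn1-high cells, with medians of 0.974 and 1.34.

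Cartilage genes were present in the Prg4-positive cells at part of their level in Matn1-high cells. Of 18 chondrocyte genes with enough UMIs 11 were lower and 0 were higher, with a median ratio of 0.41 and 0.32. Their summed level was 16300 and 15700 CPM against 37300 and 44000. Col2a1, the type II collagen gene, ran from 0 to 78 UMIs per cell with a median of 19 at E15.5 and from 1 to 78 with a median of 20.5 at E17.5, and it was missing from 1 cell only. Col2a1 stood at 3170 CPM (3000 to 3350) and 2740 CPM (2550 to 2940), with ratios of 0.398 and 0.256 to Matn1-high cells. Acan, the aggrecan gene, was at 330 and 292 CPM with ratios of 0.191 and 0.257, and Hapln1, a link protein, had ratios of 0.258 and 0.193.

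Genes of other cartilage proteins differed more. Matn3, a matrilin, fell to 26.5 and 11.1 CPM from 323 and 223, with ratios of 0.082 and 0.0497. Ucma, a gene of the distal resting zone of growth cartilage, had ratios of 0.109 and 0.0876, and Epyc, a small leucine-rich proteoglycan of growth cartilage, 0.0514 and 0.0965. Scrg1 had ratios of 0.0197 and 0.14. Each of these 4 rested on at most 11 UMIs in the Prg4-positive cells. Comp, a pentameric protein of cartilage and tendon, was not among the genes called, at 265 and 746 CPM and ratios of 1.35 and 1.08. Neither was Sox9, the factor that sets the chondrocyte fate, at 181 and 303 CPM with ratios of 0.367 and 0.789. Col10a1, the mark of hypertrophic chondrocytes, had no UMI.

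Cell cycle genes were the other group that stood lower, with 8 of 12 lower, 0 higher and medians of 0.223 and 0.184. Top2a, a topoisomerase of dividing cells, stood at 31.3 and 11.1 CPM against 167 and 86.5, and Cdc20 had ratios of 0.171 and 0.146. Spc25, Cdca3, Aurkb and Tpx2, further genes of mitosis, were among the 12 lowest ratios, and Fam19a5, Ninj2 and C1qtnf3 (0.157 and 0.167) made up the rest of them. The difference in depth stands beside these results, since Matn1-high cells had a median of 11652 and 11347 UMIs, and its part in them was not tested.

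**Figure D2:**
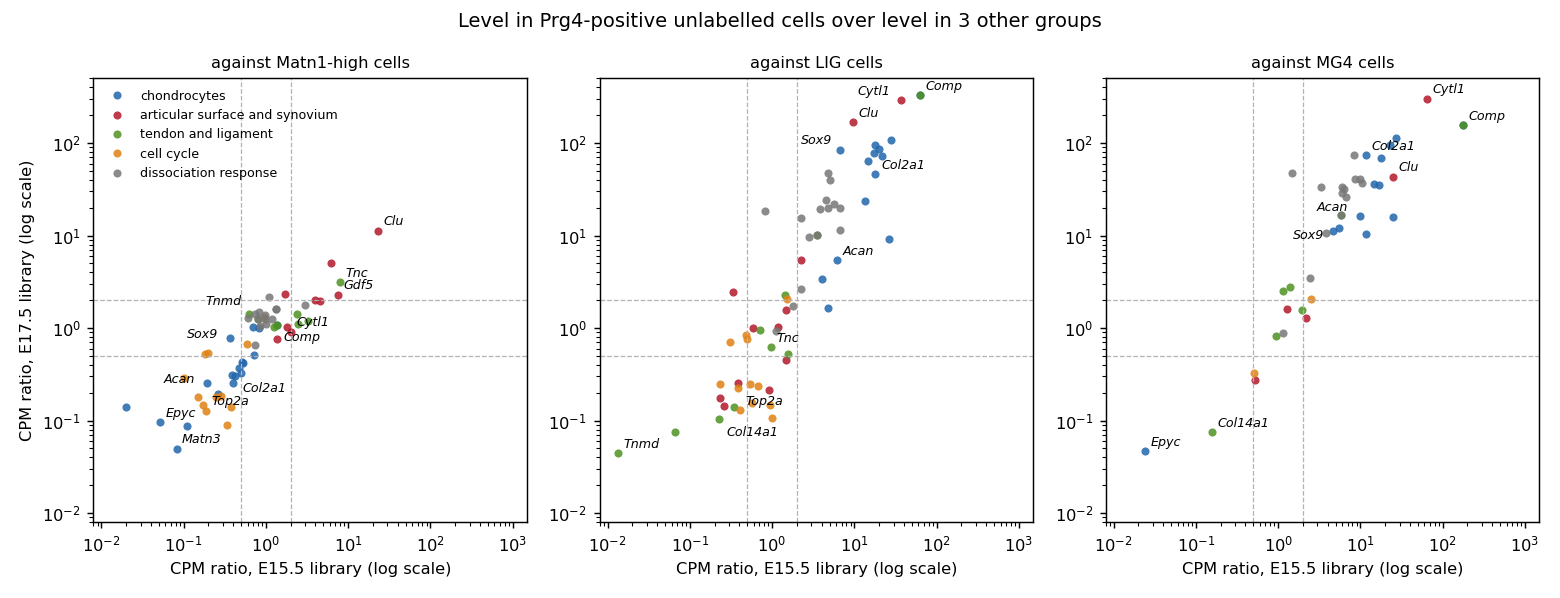
CPM of a gene in Prg4-positive cells divided by its CPM in Matn1-high, LIG or MG4 cells, in the E15.5 library (horizontal, log scale) and the E17.5 library (vertical, log scale), for genes of 5 lists, with dashed lines at 0.5 and 2 and genes at 0 UMIs in a group left out. Clu and Gdf5 lie above 2 in both libraries against Matn1-high cells, where most chondrocyte and cell cycle genes lie below 1, and most chondrocyte genes lie above 2 against LIG and MG4 cells.

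Against LIG cells, the Prg4-positive cells had more of the genes of cartilage and little of several genes of ligament. Of 7194 genes, 300 were higher (4.17%) and 484 were lower (6.73%), with a median ratio of 0.938 and 0.919. The median depth of LIG cells was 7115 and 12300 UMIs.

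Of 14 chondrocyte genes with enough UMIs 13 were higher than in LIG cells and 0 were lower, and their sum was 16300 and 15700 CPM against 1510 and 914. Col9a1, a type IX collagen gene, stood at 1090 and 1350 CPM against 38.9 and 12.7, with ratios of 28.1 and 107. Comp stood at ratios of 62.2 and 327 and Cytl1 at 36.9 and 292, while Sox9 stood at 6.74 and 84.5. Tspan13 ranked first, with ratios of 93.5 (57.4 to 161) and 228 (146 to 370). Fzd9, a Wnt receptor (36.2 and 45.7), Cpe, carboxypeptidase E (35.9 and 54.5), Chad, chondroadherin of cartilage (32 and 66.4), Neat1, a nuclear non-coding RNA (27.8 and 18.8), Cldn11, Col9a2 and Col9a3 were also among the highest ranks.

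Of 11 genes of tendon and ligament with enough UMIs, 5 were lower than in LIG cells, 2 were higher and 4 were neither. Tnmd, tenomodulin, was seen in 3 of 58 and 6 of 30 cells with at most 1 and 2 UMIs. It stood at 7.23 CPM (1.49 to 21.1) and 29.5 CPM (12.7 to 58.2), against 536 and 664 in LIG cells. Mkx, a homeobox factor of tendon, had 2 UMIs in each library and ratios of 0.0654 and 0.0752, and Scx, the early tendon factor, had 1 and 4 UMIs. The 2 higher were Comp, which cartilage also makes, and Egr1, which is also in the dissociation list. Tnc, tenascin C, did not pass 2-fold against LIG cells (0.965 and 0.62) but was the 1 tendon gene higher than in Matn1-high cells, at 62.7 and 258 CPM against 7.83 and 82.9. Tnc was uneven among the cells, with 61.4% of its UMIs at E17.5 in 4 cells and none in suffix 3.

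The 12 genes lowest against LIG cells were led by Igfbp3, an IGF binding protein, at 7.23 and 18.5 CPM against 374 and 911. They included Tnmd, Mkx and Col8a1 (0.0165 and 0.0458), the Wnt antagonist Sfrp2 (0.0579 and 0.00914), Cxcl14, a chemokine (0.057 and 0.0222), Fbln5, a protein of elastic fibres (0.0723 and 0.0327), Igfbp5, Cpz, Nhs and Gm26771. Chodl, a lectin, was at 0 UMIs at E15.5 and at 3.69 CPM against 320 at E17.5. Of 4 contractile genes 3 were lower, among them the smooth muscle actin gene Acta2 (0.153 and 0.0339), and 5 of 18 collagen genes were lower, among them Col1a1 (0.275 and 0.167) and Col3a1 (0.362 and 0.286). The same 18 held 6 that were higher, all of type II, IX and XI collagen.

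The dissociation list differed between the groups here. Against LIG cells 12 of 15 of its genes were higher, with medians of 3.86 and 18.6 and a summed level of 12700 and 17100 CPM against 4710 and 2610. Against MG4 cells 12 of 14 were higher (5.95 and 32.8), with 3570 and 2120 CPM in MG4. Fos alone stood at 2760 and 4500 CPM, against 1240 and 292 in LIG cells. Against all other kept cells 4 of 16 genes of the list were higher and 0 lower, with medians of 1.7 and 5.47. The sums there were 12700 and 17100 CPM against 7760 and 4670. The part of these differences in the other results against LIG, MG4 and all other kept cells was not tested.

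Against MG4 cells, the Prg4-positive cells again had more cartilage genes and less of 5 of 6 arachnoid genes and 4 of 7 dura genes. Of 2881 genes 128 were higher (4.44%) and 195 lower (6.77%), with a median ratio of 0.902 and 0.856. Of 13 chondrocyte genes 12 were higher and 1, Epyc, was lower (0.0239 and 0.0467), with medians of 14.6 and 35.5. Runx1, a Runt family factor, stood at 171 and 170 CPM, 56.9 and 32.2 times its level in MG4. Clu (24.6 and 43.1), Comp (176 and 157), Cytl1 (64.6 and 301), Fzd9, Matn4 (20.5 and 70.5), Neat1, Col11a2, Col9a1, Col9a2, Col9a3 and Lect1, the chondromodulin gene that the E15.5 file names Cnmd, were the others ranked highest. Comp in MG4 was 1.5 CPM at E15.5, so that its ratio there has an interval of 31 to 7020.

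Arachnoid genes were the ones most clearly missing. Of 6 with enough UMIs against MG4 5 were lower, Vtn, Crabp2, Ptgds, Tbx18 and Foxc2, and 1, Angptl2, was higher (2.98 and 3.39). Vtn, vitronectin, had no UMI in the Prg4-positive cells and stood at 179 and 331 CPM in MG4, so that its ratio, taken with 3 UMIs in place of 0, was at most 0.0404 and 0.0335. Crabp2, which binds retinoic acid, stood at 12 CPM at E15.5 and at 0 UMIs at E17.5, against 445 and 187 CPM. Gjb6, Slc47a1, Slc22a6 and the epithelial cadherin Cdh1 had no UMI either, but they had too few UMIs for a ratio to MG4 cells. Of 7 dura genes 4 were lower, among them Gja1, the connexin 43 gene (0.0868 and 0.126), and Nppc, C-type natriuretic peptide (0.172 and 0.0871), and 2 were higher, Matn4 and Mgp. Mgp, matrix Gla protein, an inhibitor of calcification, was at 5880 and 7460 CPM, and at 856 and 1750 CPM in MG4. Igfbp2 (0.0473 and 0.0202), Bace2, Gas2, Ifitm1, Slc5a6, Slc16a9, Thbd, Pgf and Tm4sf1 were the other genes ranked lowest. The dura list, with Mgp in it, summed to 6850 and 8700 CPM against 4110 and 4810 in MG4. Against LIG cells 4 of 6 dura genes were higher and 1 lower, and against all other kept cells 3 of 8 and 1.

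**Figure D3:**
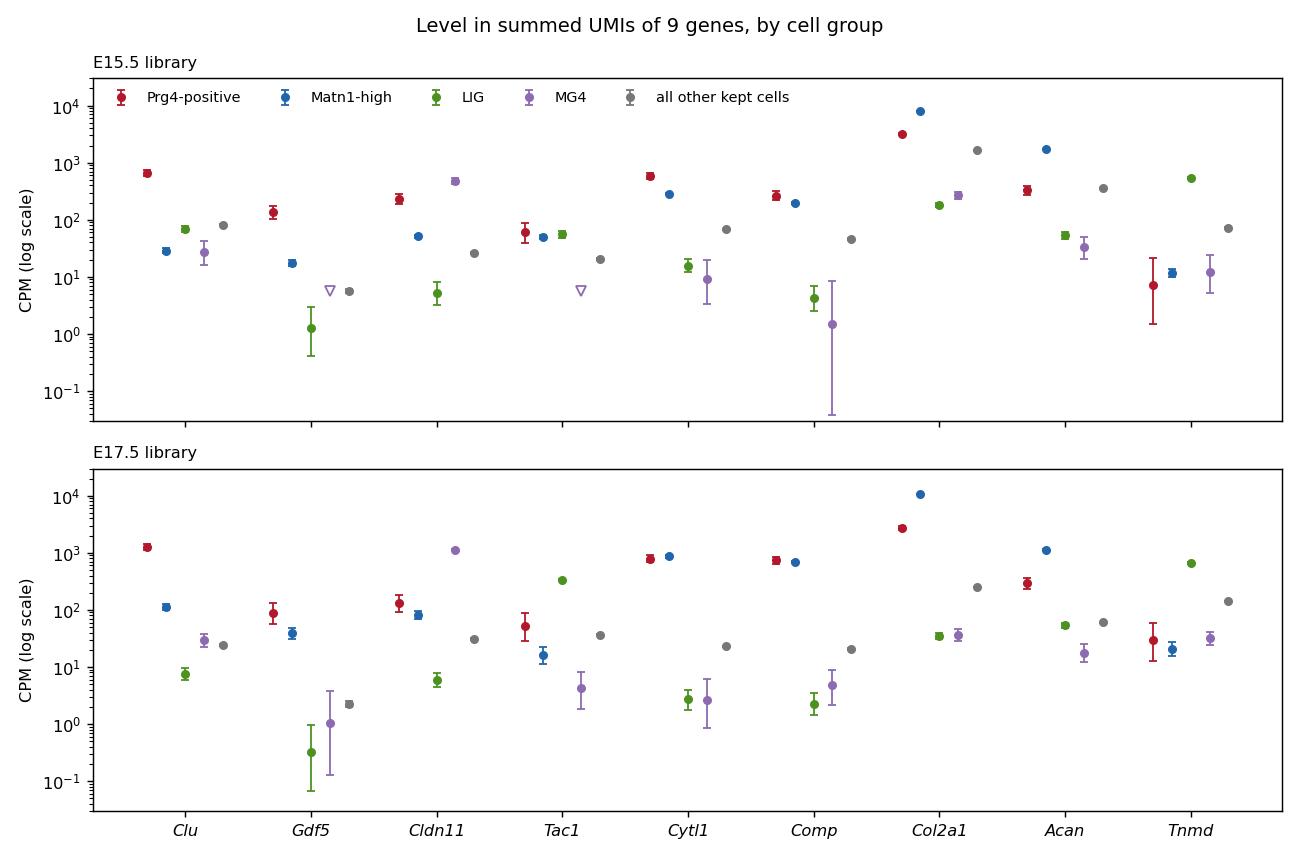
CPM of 9 genes (log scale, with 95% Poisson intervals of the counts) in Prg4-positive, Matn1-high, LIG, MG4 and all other kept cells of the E15.5 library (top) and the E17.5 library (bottom), with open triangles where a group has 0 UMIs. Clu and Gdf5 are highest in the Prg4-positive cells in both panels, Cldn11 is highest in MG4, Tac1 at E17.5 and Tnmd in both in LIG, and Col2a1 and Acan in Matn1-high cells.

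Against all other kept cells, the Prg4-positive cells held few UMIs of the markers of other cell types of the suture. Of 13216 genes 552 were higher (4.18%) and 649 were lower (4.91%), with a median ratio of 1.08 and 1.14. This median takes genes at 0 UMIs in the Prg4-positive cells with 3 UMIs in place of 0, which can raise it. The makeup of the kept cells differed between the stages, with Matn1-high cells at 14.6% of them at E15.5 and 2.06% at E17.5. Acan had ratios of 0.925 and 4.84 to all other kept cells, and the part of the makeup in such ratios was not tested. The 6 endothelial genes together stood at 28.9 and 25.8 CPM against 70.7 and 74.8, with Cdh5 and Esam at 0 UMIs and 0 of 6 called. Of 5 pericyte genes 2 were lower, Rgs5 and Kcnj8, and Rgs5, Higd1b and Notch3 had no UMI. The summed pericyte level was 94 and 44.3 CPM against 127 and 141. Of 3 mast cell and lymphocyte genes 2 were lower, Cpa3 and Cma1, with Mcpt4 and Cd3e at 0 and a sum of 67.5 and 33.2 CPM against 1060 and 171.

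Marker sums of the rarer cell types differed in how they lay against all other kept cells. Osteoclast genes summed to 224 and 303 CPM against 332 and 421, with Acp5 the 1 of 5 called lower and Ocstamp and Atp6v0d2 at 0 UMIs. Glial genes summed to 12 and 3.69 CPM against 10.5 and 17.6, with Sox10 at 0. Neuronal genes summed to 14.5 and 3.69 CPM against 81.4 and 49.7, with Tubb3, Neurod1 and Cplx3 at 0. Muscle genes summed to 2.41 and 3.69 CPM against 25.7 and 4.46, with 5 of 6 at 0. In these 3 types 0 genes were called. Keratinocyte genes summed to 74.7 and 51.7 CPM against 40.1 and 31.8, with Epcam at 0 and 0 called of the 1 with enough UMIs.

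Osteogenic, contractile and fibroblast genes were among those lower than in all other kept cells. Of 12 osteogenic genes 5 were lower, Alpl, Ifitm5, Ibsp, Dmp1 and Spp1, and 0 higher. Alpl, the alkaline phosphatase of mineralizing cells, had ratios of 0.249 and 0.17. Spp1, osteopontin, was lower than in all other cells (0.486 and 0.328) but was the 1 osteogenic gene higher than in Matn1-high cells (4.35 and 2.2). The osteogenic list summed to 680 and 757 CPM, below the 1390 and 2450 of all other kept cells. That sum was above the 112 and 293 CPM of Matn1-high, 183 and 387 of LIG and 269 and 514 of MG4 cells. It held Ibsp at 480 CPM at E15.5 and Mmp13 at 402 at E17.5. Against LIG cells 0 of 5 osteogenic genes were called higher and 1 lower, and against MG4 cells 0 of 3 and 1. Of 8 contractile genes 4 were lower than in all other kept cells. There 8 of 10 genes of ectocranial fibroblasts were also lower, with sums of 1560 and 1470 CPM against 6940 and 4080. Dcn, decorin, stood at 586 and 210 CPM.

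Matrix genes divided by kind. Of 20 collagen genes 5 were higher than in all other kept cells, Col9a1, Col9a2, Col9a3, Col11a2 and Col15a1, and 4 were lower, Col1a1, Col1a2, Col3a1 and Col14a1. Of 12 small leucine-rich proteoglycan genes Chad and Fmod were higher and Epyc and Dcn lower. Chad stood at 96.4 and 303 CPM and Fmod, fibromodulin, at 128 and 502. Of 12 hyaluronan genes Tmem2 (2.35 and 2.49) and Hyal2 (2.01 and 2.08), both tied to hyaluronan breakdown, were higher, and 4 were lower, among them the receptor gene Cd44 (0.458 and 0.175) and Vcan, versican (0.449 and 0.209). Has3 had no UMI. Htra1, a secreted serine protease, was the 1 called of 16 matrix protease genes.

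Of the 39 patterning factors listed, 18 had no UMI in the Prg4-positive cells, among them Hoxa2, Hoxa3, Pax1, Pax9, Barx1, Lhx6 and Lhx8. Only 25 of the 39 had enough UMIs for a ratio to all other kept cells. Against these cells 5 of the 25 were higher and 3 lower. None of the 18 was among the 3 lower, so their counts of 0 do not set the Prg4-positive cells apart. Foxc1, a forkhead factor needed for the calvaria and meninges, stood at 113 and 199 CPM, with ratios of 4.52 and 9.0. Runx1 had ratios of 2.74 and 5.04, and Msx2, a homeobox factor of the sutures, 4.09 and 3.87. Alx1, a factor of frontonasal mesenchyme, stood at 145 and 225 CPM (2.33 and 3.75), and Foxc2 was the other that was higher, while Osr1, Osr2 and Meox2 were lower. Against Matn1-high cells 0 of 9 patterning factors were called.

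Among ligands, Pthlh, the PTHrP gene, was the 1 of 9 hedgehog and PTHrP genes higher than in all other cells, at 38.6 and 55.4 CPM with ratios of 4.31 and 4.33, and Hhip was lower. Bmp2 stood at 186 and 84.9 CPM, 7.73 and 4.54 times its level in all other cells, and 5 of 23 TGF-beta and BMP genes were higher and 2 lower there. Of 20 Wnt genes 0 were higher and 3 were lower, Sfrp2, Rspo3 and Wnt9a.

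The Prg4-positive cells were not uniform. Clu was present in 15 of the 19 Gdf5-positive cells and 28 of the 39 others at E15.5, and in 12 of 12 and 16 of 18 at E17.5. Cldn11 and Gdf5 were found together in 13 cells at E15.5 and in 1 at E17.5. When the cells were divided at 5 Clu UMIs, 20 of 58 and 18 of 30 lay at or above it, with median depths of 6721 and 7888 UMIs against 6191.5 and 8715 in the others. This division was chosen after the values were seen, and the Clu-rich cells were not another group of the study.

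Cells with at least 5 Clu UMIs had less Col2a1, Col9a1 and Cytl1 than the others, with intervals apart in both libraries, and more Tnc. Col2a1 was at 2210 against 3700 CPM at E15.5 and at 1940 against 4000 CPM at E17.5. Col9a1 was at 839 against 1230 and at 1140 against 1690 CPM, and Cytl1 at 392 against 689 and at 547 against 1180 CPM. Tnc went the other way, at 129 against 26.2 and 337 against 134 CPM. Over all Prg4-positive cells, 4 cells held 61.5% and 61.4% of the Tnc UMIs, a spread that the intervals do not cover. Among the Clu-rich cells at E15.5, 1 cell held 9 Tnc UMIs and also 29 of Dcn. Cldn11 (257 against 225 and 102 against 182 CPM) and Gdf5 (149 against 127 and 90.2 against 86 CPM) had overlapping intervals. Those of Comp (230 against 285 and 650 against 898 CPM) and Fzd9 (122 against 228 and 295 against 392 CPM) also overlapped in both libraries. Acan, at 183 against 412 and at 241 against 373 CPM, had intervals apart at E15.5 alone. Matn1, held below 10 UMIs by the rule, was at 365 against 479 and 192 against 268 CPM.

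At E15.5, 4 cells stood apart by 29 to 62 UMIs of Dcn, together 79.4% of all 243 Dcn UMIs of the 58 cells. Other fibroblast genes were high in the same cells, with Sfrp2 at 1650 CPM against 79.8 in the other 54, Mfap5 at 483 against 39.9 and Lum at 1060 against 362. They held 13380 to 19374 UMIs, among the deepest, and 3 of the 4 had a doublet score above the 94th percentile. Without them Dcn was at 143 CPM, and Clu and Col2a1 were at 727 and 3330 CPM at E15.5.

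In an expression space built without Prg4 and Matn1, the nearest cells of the Prg4-positive cells were mostly other unlabelled cells. The labels came from clusters of expression, and the rule left labelled cells out. A low share of labelled neighbours could therefore be set in part by the rule. Among the 30 nearest cells of each, the mean share of Prg4-positive cells was 13.4% (E15.5) and 15.8% (E17.5), while such cells made up 0.706% and 0.342% of the kept cells. Matn1-high cells made up 25.6% and 26.4%, and the remaining unlabelled cells 54.4% and 57.8%. Labelled cells made up 6.55% and 0%, LIG cells 0.172% and 0%, and MG4 cells 0% in both. At E15.5, 7 cells had no Prg4-positive cell among their 30 nearest and 3 had mostly labelled cells, while at E17.5 each cell had at least 1 (3.33% to 26.7%). The mean profile over 2000 genes was compared with those of Matn1-high cells and the labelled clusters, and not with the remaining unlabelled cells. Across genes, which are not independent replicates, r was 0.91 and 0.902 for Matn1-high cells, 0.879 and 0.806 for MG2, 0.865 and 0.797 for OG3, 0.853 and 0.751 for LIG, and 0.824 and 0.72 for MG4.

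**Figure D4:**
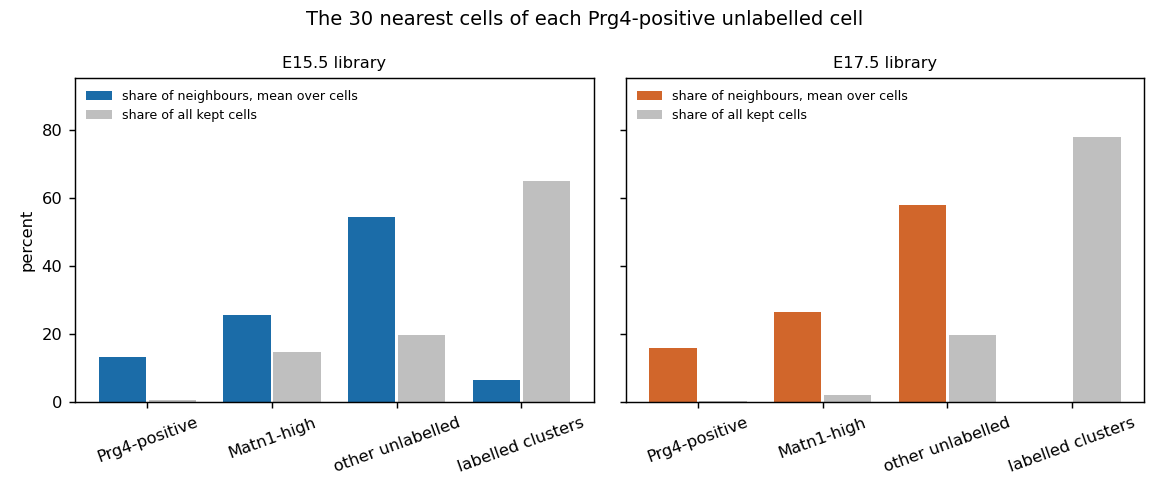
Mean share (percent) of the 30 nearest cells of the Prg4-positive cells that fell in each group, beside the share of that group among all kept cells, in the E15.5 library (left) and the E17.5 library (right). Prg4-positive, Matn1-high and other unlabelled cells take a larger share of the neighbours than of all kept cells, and cells of the labelled clusters a smaller one (6.55% and 0%). The low labelled share could be set in part by the rule, which left labelled cells out.

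Around the Prg4-positive cells lay 133 and 73 other unlabelled cells with fewer than 2 Prg4 UMIs that appeared at least 3 times among those nearest cells. Of these, 15 and 10 held a Prg4 UMI. Clu was at 632 and 1300 CPM in them, next to 665 and 1270 in the Prg4-positive cells, and Col2a1 at 2500 and 2690. Cytl1 was at 415 and 577 CPM, Comp at 330 and 742, and Gdf5 at 85.3 and 140. Gdf5 in the Prg4-positive cells was at 135 and 88.6 CPM, higher at E15.5 and lower at E17.5. Tspan13 stood at 283 and 607 CPM and Tnmd at 3.66 and 11.8. Tac1 was at 128 CPM (105 to 155) and 22 CPM in them, against 60.2 (39 to 88.9) and 51.7 in the Prg4-positive cells, and Cytl1 was below the 583 and 794 CPM of those cells. Their median depths were 5850 and 7843 UMIs. Since these cells were chosen by likeness, their levels are a description. The 49 and 13 unlabelled cells with exactly 1 Prg4 UMI, chosen without likeness, had Clu at 490 and 1310 CPM, Col2a1 at 3270 and 2530 and Gdf5 at 96.2 and 115.

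Between the stages, the E17.5 cells had more Comp, Fmod and Bgn than the E15.5 cells. Of 698 genes with at least 50 UMIs in each library, 25 were at least 2-fold higher at E17.5 (3.58%) and 13 at least 2-fold lower (1.86%), with no test, since each stage was 1 sample. Comp went from 265 to 746 CPM, a ratio of 2.81 (2.22 to 3.58). In Matn1-high cells Comp was also higher at E17.5, where its median over cells went from 150 to 698 CPM. Fmod went from 128 to 502 CPM (3.93, 2.84 to 5.51) and Bgn, biglycan, from 665 to 1730 CPM (2.6, 2.23 to 3.02), both small proteoglycans that bind collagen fibrils. The tendon and ligament list, which holds Comp, Fmod and Bgn, summed to 2500 and 4640 CPM in the Prg4-positive cells. In Matn1-high cells the list summed to 1810 and 3650 CPM, so its rise was not particular to the Prg4-positive cells. Dcn went from 586 to 210 CPM (0.359, 0.264 to 0.481), but without the 4 Dcn-rich cells it stood at 143 CPM at E15.5, so that its direction turned.

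Several of the genes that differed were immediate early or stress genes. Zfp36 stood at 142 and 598 CPM (ratio 4.21), Junb at 1140 and 2930 (2.57) and Btg2 at 704 and 2010 (2.86). Ppp1r15a, at 643 and 295 CPM (0.459), Klf4 (0.492) and Errfi1 (0.415) went the other way. Ndufa4l2 (3.84) and Igfbp7 (2.72) were the other genes ranked highest, and Tra2b (0.403), Srrm2 (0.408), Ncl (0.471) and Rrbp1 (0.476) the other genes ranked lowest. Enzyme and sorting differed between the stages, and their part cannot be told apart from that of age.

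**Figure D5:**
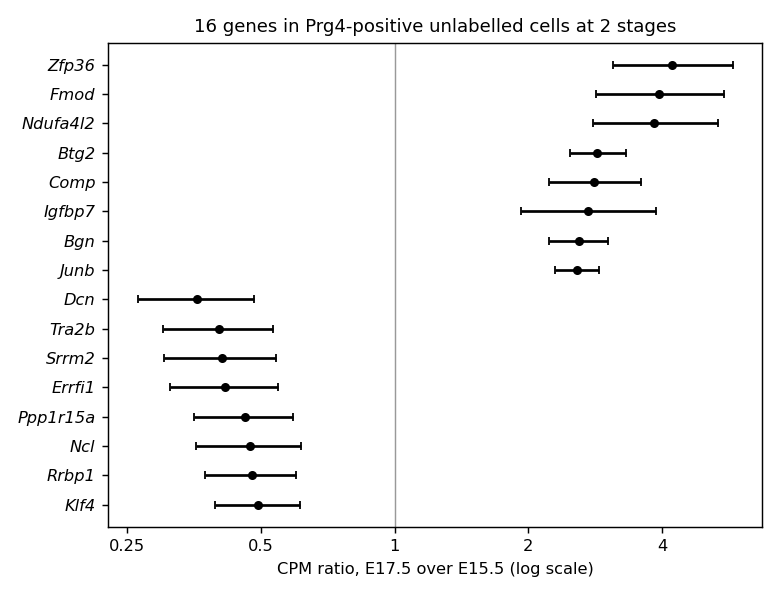
CPM of 16 genes in the E17.5 Prg4-positive cells divided by that in the E15.5 cells (horizontal, log scale), with 95% intervals that cover counting error only. The 8 genes on the higher side run from 2.57 (Junb) to 4.21 (Zfp36) and the 8 on the lower side from 0.359 (Dcn) to 0.492 (Klf4).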

How the data were processed

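Single cells of 2 suture samples were analysed, 1 per stage. The authors deposited raw UMI counts per gene and barcode (10x Chromium 3′ v2, aligned to mm10 with Cell Ranger, 2.1.1 in the study's methods while the E15.5 matrix header gives 3.1.0), and a table with the cluster of each cell of their osteogenic and mesenchymal subset, made with Seurat 3.2.0. The submitters' processing notes also name FastQC 0.11.7 and MultiQC 0.9. The E15.5 and E17.5 matrices held 15384 and 9326 barcodes, of which 8210 and 8767 were kept (all labelled cells in the matrices, 5335 and 6830, plus unlabelled cells within the limits).

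Counts were summed per group and library and given as CPM with exact Poisson intervals, ratios with exact binomial intervals and shares with Clopper-Pearson intervals, all covering counting error only. Genes were matched by Ensembl ID (27514 in both files), and Prg4 and Matn1 were left out of the comparisons. A group at 0 UMIs was set to 3 UMIs, which gives a bound in 1 direction, and no call was made in the other. Median ratios include such genes at the set value, so genes absent from the Prg4-positive cells can raise a median. Cells are not replicates, and no test was run. Neighbours came from scanpy 1.11.5 (counts per 10000, log scale, 2000 variable genes, 30 components). Doublets were scored per barcode suffix with Scrublet at a rate of 0.06 and were kept, with 4 and 1 of the Prg4-positive cells above the 94th percentile. Free RNA was not removed, and shares were set beside those of myeloid-marked cells after thinning. Python 3.11.15 with numpy 2.4.6, scipy 1.17.1 and pandas 2.3.3 was used. The calls were tried on simulated counts that had no spread between cells. That trial assessed only genes with at least 50 expected UMIs in the Prg4-positive cells of each library, so calls on fewer were not covered.

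Named are the 12 highest and 12 lowest ratios per comparison, ranked by the library nearer to 1, the 8 highest and lowest between stages, and genes of 30 lists, except that some genes are not reported here. The members and lists were chosen with earlier results of these data known. Gene positions are from GENCODE annotation of GRCm38.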

Additional observations from a re-analysis of the deposited data

Results flagged for a closer look

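Omd, the gene of osteomodulin, went opposite ways against Matn1-high cells in the 2 libraries. Its ratio was 2.48 at E15.5 (24.1 against 9.74 CPM) and 0.442 at E17.5 (62.8 against 142 CPM), and the difference was not tested. Scrg1 had a ratio to all other kept cells of 0.0986 at E15.5 and 5.72 at E17.5, on 2 and 9 UMIs. Matn1-high cells, with Scrg1 at 245 and 237 CPM, made up 14.6% and 2.06% of the kept cells. The part of this makeup in the Scrg1 difference was not tested either.

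Prg4 was also found outside the cells analysed. At E15.5, 38 of the 7174 barcodes that failed the cell limits held at least 2 Prg4 UMIs, against 0 of 559 at E17.5. They had a median of 1927.5 UMIs, and Clu stood at 642 CPM, Cytl1 at 603 and Col2a1 at 3530 in them, but Gdf5 at 22.3. Among labelled cells 6 held at least 2 Prg4 UMIs at E15.5, and 0 did at E17.5. Their median was 14395.5 UMIs, Clu was at 241 CPM and Col2a1 at 1210, and 3 of the 6 had a doublet score above the 94th percentile.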

How the results depend on the processing

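Ratios of single genes were recomputed for Tac1, Cldn11, Clu, Col2a1 and Tnmd alone. Among these, no ratio whose main interval excluded 1 changed direction. The E15.5 Tac1 ratios, with intervals that included 1, did: to Matn1-high cells from 1.21 to 0.666 and 0.486 with at least 3 and 5 Prg4 UMIs and 0.672 with at most 5% mitochondrial UMIs, and to LIG from 1.09 to 0.597, 0.436 and 0.591, and 0.925 with Matn1 below 5. Tac1 to all other cells at E17.5 went from 1.4 to 0.988 with at least 1 Prg4 UMI, and the Tnmd ratios to Matn1-high and MG4 cells also crossed 1 under some settings. The stage difference of Dcn turned without the 4 Dcn-rich cells. No paired analysis was possible because each stage was 1 sample. With at least 1 Prg4 UMI the E15.5 cells numbered 107, with at least 3 the E17.5 cells 9, with at least 5 there were 20 and 6, after thinning 32 and 11, and suffixes 1 to 3 held 10, 13 and 7. The Prg4-positive share of neighbours was 18.8% and 24.6% with at least 1 UMI, 9.0% and 6.3% with 3, 7.0% and 2.22% with 5, 8.73% at E15.5 with Matn1 below 5, 25.0% and 8.57% for suffixes 1 and 3, 12.4% at E17.5 with 15 neighbours and 11.6% at E15.5 with 1000 variable genes. Gene counts are given as higher and lower. Against Matn1-high cells they were 12 and 51 after thinning, 26 and 36, 65 and 95, and 57 and 102 in suffixes 1 to 3, 638 and 300 with a minimum of 1 UMI, 36 and 61 with 200, and 373 and 442 at 1.5-fold. Against LIG they were 123 and 155 after thinning, 57 and 97 in suffix 1, 98 and 218 with 200 UMIs, 619 and 1012 at 1.5-fold, 955 higher with 1 UMI, and lower 312 with at least 3 and 235 with at least 5 Prg4 UMIs and 193 in suffix 3. Against MG4 they were 29 and 58 after thinning, 40 and 39 in suffix 1, 82 higher in suffix 3, 726 and 592 with 1 UMI, 38 and 55 with 200, and 237 and 452 at 1.5-fold. Against all other cells they were 1121 and 1369 at 1.5-fold, and lower 296 and 221 with at least 3 and 5 Prg4 UMIs, 163 after thinning, and 336, 414 and 214 in suffixes 1 to 3. With intervals that also exclude 1, an alternative chosen after seeing the data, LIG lower was 307 and all other cells 303 and 367. The cause of these shifts was not tested, except that thinning, single suffixes and higher minimums leave fewer cells or genes. Fewer mitochondrial UMIs, removal of high doublet scores, another scaling, means per cell, matching by symbol, 20 components, or leaving out the 4 Dcn-rich cells (also chosen after seeing the data) moved no count beyond 1.5 times. Of the recomputed ratios of Tac1, Cldn11, Clu, Col2a1 and Tnmd 108 moved and 346 did not, and ratios of other genes were not recomputed. Genes with fewer than 50 UMIs in a library over the groups compared were not counted in the main comparisons. With 58 and 30 cells, some calls rested on few UMIs in the Prg4-positive cells, as for Aurkb with 1 in each library.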

Other observations

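Some genes of low level stood out against all other kept cells. Gm2115, a non-coding RNA gene, was at 33.7 and 29.5 CPM in the Prg4-positive cells against 1.01 and 0.754 CPM, on 14 and 8 UMIs. Tspan13 had ratios of 16.9 and 25.4, Tfrc 10.8 and 18.2 and Lsr, a lipoprotein receptor of tricellular junctions, 10.3 and 22.4. Stac2 (19.4 and 22.3), Lamc3, a laminin chain (15 and 25.1), Lrrc23 (14.7 and 15.1), Svopl (14.3 and 36.1), Kcnj15 (13.7 and 17.4) and Asb9 (16.9 and 12.3) each rested on at most 7 UMIs at E17.5. Gdf5 was also among the highest ratios. The 12 lowest were mostly genes of myeloid and dividing cells, with Fcgr3, C1qa, Tyrobp, Ms4a6c, Pf4, Coro1a, Aurkb and Spc25 among them, beside Krtdap, Igfbp3, Tm4sf1 and Acta2.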
